A study of Homo sapiens with 24 samples.

Results

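The probes described here were chosen, on the authors' normalized values of day 2, as higher with retinoic acid (RA), near the scrambled control under the label OE without RA, and lower under OE with RA. They are 28 of the 20589 probes on Illumina arrays hybridised with RNA of SH-SY5Y, a human neuroblastoma line that takes on neuronal features under RA. OE in the sample titles is read here as overexpression, and KD as knockdown, of the microRNA miR-125b. The titles do not name the microRNA. The source names write DP for the OE samples, and neither abbreviation is spelled out. The 24 arrays form 8 groups of 3: scrambled control (SCR) and OE without RA on day 2 and on day 4, and SCR, knockdown (KD), OE and OE+KD with RA on day 2. RA dose, reagent delivery and clone number are not given, nor whether the 3 arrays of a group came from separate cultures, so p-values measure only the spread between arrays, which may be technical. Since the probe IDs are not paired with genes in the tables used here, no gene or function is named, markers of the cell line were not checked, and whether several of the probes report 1 gene is unknown.

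The members were chosen on the intensities normalized by the authors, with values under 50 raised to 50 and averaged per group on the log2 scale. A member had a group mean of at least 7, an RA rise of at least 0.6 in SCR cells on day 2, an OE effect without RA on day 2 under 0.4 in size, and an OE effect with RA of -0.5 or lower. Of 206 probes that met all but the last condition, 28 met it and 178 did not. The nearest probe inside the last limit stood at -0.54 and the nearest outside at -0.50. For the RA rise these values were 0.61 and 0.58, for the size of the OE effect without RA 0.40 on both sides, and for the highest group mean 7.21 and 6.98.

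As background, RA acts through nuclear receptors of the RAR and RXR families, which bind DNA and switch on transcription of their targets, and it is a standard agent for slowing division and promoting neurite growth in neuroblastoma cells. A microRNA guides Argonaute proteins to messenger RNAs that pair with its seed, which lowers the stability and translation of those messages. miR-125b is abundant in neural tissue. Its mature sequence is shown because the OE and KD labels are read here as referring to it, with the seed (bases 2 to 8) in capitals:

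hsa-miR-125b-5p: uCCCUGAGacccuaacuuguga

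RefSeq places this 22-base sequence, in build GRCh38.p14, on the minus strand at chr11:122099809-122099830 in MIR125B1 and on the plus strand at chr21:16590253-16590274 in MIR125B2. Its level was not analysed here, so the OE and KD labels were not checked. Whether any of the 28 probes lies in a transcript with a seed match could not be asked without probe names or sequences.

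One array of the groups that chose the members stood apart. Replicate 2 of OE with RA had the highest residual SD about the group means, 0.276 on the log2 scale of the background-corrected, quantile-normalized scanner intensities, where the lowest of the 24 arrays had 0.0906. The other OE arrays with RA had 0.198 (replicate 1) and 0.168 (replicate 3). Deviations within a group share its mean, so they are not independent. The members' median deviation from their group mean was -0.15 log2 on replicate 2, against 0.06 and 0.10 on the other OE arrays with RA. In ILMN_3001, for example, it stood at 9.37 beside 10.03 and 9.87. Without it the rule found 25 probes, of which 21 were among the 28. OE+KD minus OE then had a median of 0.21 log2 over the 28 members. Its part in the membership beyond these values was not tested. The comparisons of OE+KD with KD and of OE with SCR on day 4 do not use the group mean of this array. It still entered them through the shared estimate of the spread, the joint quantile normalization and the filter on dim probes. The 24 arrays had mean scanner intensities between 617.8 and 1134.2, and replicates correlated with r of 0.978 to 0.997.

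The rule's own values are a description and carry no test. On the authors' scale the RA rise ran from 0.61 to 8.14 log2 over the 28 probes, with a median of 1.19. It was at least 2-fold for 17 probes and over 5 log2 for 4. With RA, OE minus SCR ran from -2.07 to -0.54 with a median of -0.73, and 5 probes were lower by at least 2-fold. The members hold a few probes that RA took from near background to high intensity and many with small rises.

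For 6 of the 28 probes all 6 untreated day 2 arrays stood at the floor of 50, and for 1 more some of them did. The 6 probes had an OE effect without RA of 0 on that scale and so met the limit of 0.4 through the floor. On the scanner scale used below, which has no such floor, 2 of the 28 probes had an OE effect without RA on day 2 below -0.4, at -0.75 and -0.57 log2. With RA the same probes stood at -0.78 and -1.03, so for the first of them the OE effect was of nearly the same size with and without RA.

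All levels below are log2 scanner intensities after normexp background correction with an offset of 50 and quantile normalization. All 28 members passed the filter on dim probes, which kept 10691 probes. RA-treated groups could carry a member through that filter, so nothing is read from its passing. The median level of the 28 probes without RA was 7.81 in SCR and 7.68 in OE cells on day 2, and 8.12 and 7.73 on day 4. With RA it was 9.81 in SCR, 9.72 in KD, 9.17 in OE and 9.54 in OE+KD cells. The median over all tested probes stayed between 9.16 and 9.17 in the 8 groups, which quantile normalization largely fixes. From untreated to RA-treated cells on day 2, the members differed by a median of 0.999 log2 (range 0.45 to 7.66) in SCR and of 0.55 (range 0.03 to 5.66) in OE cells, a gap that the rule sets. In the 178 RA-raised probes that missed the last condition these medians were 0.67 and 0.69. In RNA from whole cultures, fewer cells of a kind and less RNA per cell cannot be told apart.

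ILMN_28662 had the largest RA rise among the members. Without RA it stood at 6.40, 6.17 and 6.63 in SCR and at 6.60, 6.30 and 6.79 in OE cells on day 2. With RA it stood at 14.10, 14.06 and 14.01 in SCR, 13.84, 13.78 and 13.84 in KD, 12.32, 12.04 and 12.29 in OE and 13.46, 13.27 and 13.29 in OE+KD cells. The 4 groups with RA did not overlap, with OE lowest, then OE+KD, KD and SCR. On day 4 without RA it stayed at 6.42, 6.44 and 6.74 in SCR and at 6.53, 6.64 and 6.88 in OE cells. Even in OE cells with RA on day 2 the probe lay 5.66 log2 above OE cells without RA.

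ILMN_27300 kept the same order. It stood at 13.44, 13.25 and 13.27 in SCR, 12.75, 12.65 and 12.83 in KD, 12.05, 11.72 and 11.85 in OE and 12.56, 12.57 and 12.44 in OE+KD cells with RA. Every untreated array lay between 6.21 and 6.58.

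ILMN_23980 had the largest fall under OE with RA. It stood at 12.30, 11.93 and 12.04 in SCR, 11.34, 11.58 and 11.19 in KD, 10.29, 9.96 and 10.28 in OE and 11.43, 11.21 and 11.27 in OE+KD cells. Here KD and OE+KD overlapped, both below every SCR array and above every OE array.

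The 4 groups that the rule's differences did not use are KD and OE+KD with RA on day 2, and SCR and OE without RA on day 4. They entered the rule only through its minimum level. In KD cells with RA, the 3 arrays lay above all 3 SCR arrays without RA on day 4 for 22 of the 28 members, against 26.4% of all tested probes, and below them for 2, against 28.3%. In OE+KD cells with RA, the 3 arrays lay above all 3 OE arrays without RA on day 4 for 26 members, against 25.5%, and below them for 1, against 27.4%. Higher levels with RA were thus also seen in arrays outside the rule's differences, although day and the KD reagent differ along with RA in these pairs of groups.

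The comparison of OE+KD with KD asked how far OE lowered these probes in RA-treated cells that also carry the KD label, with no array shared with the rule's differences. Of the 28 members, 4 were lower, or 14.3%, against 5.24% of all tested probes, and 0 were higher, against 3.59%, so that 4 changed in all, against 8.83% (limma, adjusted p under 0.05 over all 10691 probes). Of the calls over all probes 40.7% were upward, and 25.7% with median scaling in place of quantile normalization. At an unadjusted p under 0.05, limma gave 7 members lower, against 11.5% of all tested probes, and 1 higher, against 10.6%. OE+KD lay below KD for 20 members and above it for 8, with a median of -0.13 log2 (range -1.0 to 0.30). The median was 0.01 over all tested probes, and 0.03 over the 178 RA-raised probes that had missed the last condition, of which 6 were called lower and 13 higher.

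ILMN_3001 fell most, from 11.56, 11.52 and 11.44 in KD to 10.60, 10.41 and 10.50 in OE+KD cells. The groups did not overlap, and the probe was 2.00-fold lower (-1.0 log2, SE 0.121, limma adjusted p = 3.48e-06). Its SCR level with RA was 10.43, 10.36 and 10.38, so the KD arrays lay above all SCR arrays, and OE+KD arrays near them.

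ILMN_9206 fell from 10.41, 10.45 and 10.25 in KD to 9.64, 9.70 and 9.54 in OE+KD cells (-0.75 log2, SE 0.087, limma adjusted p = 2.07e-06). With RA its SCR arrays, at 9.999, 9.93 and 9.98, lay between these groups, and its OE arrays, at 9.12, 9.26 and 9.31, below both.

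ILMN_29202 stood at 11.46, 11.48 and 11.85 in KD and at 10.90, 11.03 and 10.87 in OE+KD cells (-0.67 log2, SE 0.100, limma adjusted p = 6.90e-05). The KD arrays spread around the SCR arrays with RA (11.49, 11.66 and 11.65), and OE+KD overlapped OE (10.63, 10.83 and 10.95).

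The remaining called probe was ILMN_28662, at -0.48 log2 (SE 0.123, limma adjusted p = 0.0129). Its size hardly changed between settings, but the call was lost with a normexp offset of 16 (adjusted p = 0.0985 by limma) and in the authors' intensities as deposited (adjusted p = 0.0812 by limma). It was also lost without replicate 2 of OE+KD, at -0.45 log2 (limma adjusted p = 0.0577), and without replicate 3 of KD, at -0.47 log2 (limma adjusted p = 0.0502).

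For the other strongly RA-raised probes the difference did not pass the test. ILMN_27300 gave -0.22 log2 (95% interval -0.41 to -0.03, limma adjusted p = 0.160). ILMN_12432 gave -0.22 log2 (95% interval -0.43 to -0.003, limma adjusted p = 0.218). ILMN_23980 gave -0.07 log2 (95% interval -0.31 to 0.17, limma adjusted p = 0.789), where OE minus SCR with RA had been -1.92. At the upper end were ILMN_19498, at 0.30 log2 (limma adjusted p = 0.0612), and ILMN_12053, at 0.16 (limma adjusted p = 0.452). ILMN_19498 passed the threshold under 4 of its 8 alternative settings, where its adjusted p by limma ran from 0.000384 to 0.180. It stood at 7.17, 7.26 and 7.27 in KD and 7.58, 7.51 and 7.50 in OE+KD cells, both below every SCR (8.07, 8.12 and 8.04) and OE array (7.78, 7.61 and 7.69) with RA. ILMN_12053 stood at 9.45, 9.44 and 9.03 in KD and 9.36, 9.56 and 9.49 in OE+KD cells, which overlapped. Over the 24 members that did not pass, the differences ran from -0.23 to 0.30 log2, and their 95% intervals reached from -0.54 to 0.50.

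Without RA on day 4, OE was compared with SCR in cells that share no array with the rule's differences. Here 11 of the 28 members were lower, or 39.3%, against 25.3% of all tested probes, and 2 were higher, against 26.2%, so that 13 changed in all, against 51.5% (limma, adjusted p under 0.05). The 11 lower ones ran from -0.90 to -0.24 log2 and the 15 that did not pass from -0.46 to 0.15. With the replicate number as a block, which this pair of groups supports, 13 members were lower, against 27.6% of all tested probes, and 2 higher: the same 13 calls as without the block and 2 more. A stricter filter on dim probes tested 19 of the 28 members and called 7 lower, against 27.4% in that fit. The 4 calls missing under it belonged to members it did not test. The median was -0.19 log2 (range -0.90 to 0.55), against 0.01 over all tested probes. Among the 178 RA-raised probes that had missed the last condition, 30 were lower and 53 higher, with a median of 0.10. The members and the 178 already differed in this direction on day 2 without RA, within the rule's limit on the authors' scale. There OE minus SCR had a median of -0.16 over the members, 22 of them negative. Over the 178 it was 0.06, with 66 negative. Median scaling moved the day 4 median of all probes to 0.13 log2, and the members' median was then -0.15. With it 9 members were called lower on day 4, and 68.9% of the calls over all probes were upward in place of 50.9%. The 4 probes named next kept their directions and calls under it.

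ILMN_8584 fell most, from 10.24, 10.30 and 10.43 in SCR to 9.44, 9.41 and 9.43 in OE cells on day 4 (-0.90 log2, SE 0.121, 1.86-fold, limma adjusted p = 1.23e-06). On day 2 without RA its SCR arrays stood at 10.12, 10.18 and 10.20 and its OE arrays at 9.84, 10.08 and 10.10, so every day 4 OE array lay below every day 2 array of both kinds.

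ILMN_24504 stood at 8.70, 8.49 and 8.46 in SCR and at 7.73, 7.57 and 7.76 in OE cells on day 4 (-0.87 log2, SE 0.088, limma adjusted p = 1.31e-08). On day 2 its SCR arrays had stood at 7.57, 7.60 and 7.40, so it was the SCR level that moved most between the days, by 1.03 log2. With RA on day 2 its SCR arrays reached 8.16, 8.17 and 8.21, below every untreated SCR array of day 4.

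The rising probes were ILMN_136935 and ILMN_3001. ILMN_136935 went from 8.61, 8.65 and 8.56 in SCR to 9.30, 9.01 and 9.15 in OE cells on day 4 (0.55 log2, SE 0.086, limma adjusted p = 1.02e-05), and on day 2 its OE arrays (8.46, 8.31 and 8.22) lay below the SCR arrays (8.61, 8.58 and 8.61). ILMN_3001 went from 8.70, 8.50 and 8.66 to 9.27, 8.93 and 9.25 (0.53 log2, SE 0.121, limma adjusted p = 0.000692). Without RA its OE arrays lay above the SCR arrays on both days, and with RA below them.

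The 2 probes with the largest RA rise did not pass the test for OE without RA on day 4. ILMN_28662 gave 0.15 log2 (95% interval -0.10 to 0.40, limma adjusted p = 0.320). ILMN_27300 gave -0.06 (95% interval -0.25 to 0.14, limma adjusted p = 0.643). Both had levels between 6.24 and 6.88, near the low end of the scale where the offset compresses differences. Of the other members with an RA rise over 5 log2, ILMN_23980 did not pass either, at -0.05 log2 (limma adjusted p = 0.725). ILMN_12432 was called lower. It went from 6.82, 7.02 and 6.84 in SCR to 6.34, 6.30 and 6.14 in OE cells (-0.63 log2, limma adjusted p = 1.73e-05).

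The difference between these OE effects, with KD and RA on day 2 minus without RA on day 4, was itself tested. RA, day and KD differ together in it, so it cannot be assigned to any of them. It passed at 14 of the 28 members, or 50%, against 26.6% of all tested probes (limma, adjusted p under 0.05). It was positive at 9, against 13.2%, with 0.42 to 0.81 log2, and negative at 5, against 13.4%, with -1.53 to -0.51. A stricter filter on dim probes tested 19 of the members, and the difference passed at 9 of these, against 29.7% in that fit. The 5 calls missing under it belonged to members it did not test. Positive calls numbered 4 under median scaling, against 6.79% of all tested probes, and 5 without replicate 1 of KD. Under median scaling 23.2% of the calls over all probes were positive in place of 49.5%. Of the 9 positive probes, 8 were called lower by OE without RA on day 4. Of the 5 negative ones, 4 were the probes called lower in OE+KD against KD, and the remaining one was ILMN_136935. Both OE effects are terms of the difference, which favours such overlap, so nothing is read from it.

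ILMN_3001 had the most negative difference, at -1.53 log2 (SE 0.171, limma adjusted p = 3.53e-07), its OE effect being downward with KD and RA and upward without RA on day 4. ILMN_29202 followed at -0.75 (SE 0.142, limma adjusted p = 0.000313). The most positive were ILMN_23718, at 0.81 (SE 0.161, limma adjusted p = 0.000555), and ILMN_8584, at 0.78 (SE 0.172, limma adjusted p = 0.00141). ILMN_23718 stood at 7.27, 7.11 and 7.36 in KD and 7.27, 7.32 and 7.19 in OE+KD cells with RA, which overlapped, and fell from 7.70, 7.38 and 7.48 in SCR to 6.65, 6.77 and 6.76 in OE cells without RA on day 4.

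Within the RA-treated cells, KD and OE+KD can be set beside SCR and OE only as values, because SCR and OE with RA chose the members. KD lay below SCR for 22 of the 28 members and above it for 6, with a median of -0.24 log2 (range -1.01 to 1.11). The arrays did not overlap, with KD lower, for 18 members, against 18.3% of all tested probes, and with KD higher for 4, against 17.7%. The choice of probes that are high in SCR with RA favours lower values in any other group, so nothing is read from these counts. ILMN_3001 stood out with KD 1.11 log2 above SCR, followed by ILMN_9206 with 0.40. At the other end ILMN_23718 lay 1.01 log2 under SCR with KD, at -1.01, which put its KD arrays below all its untreated SCR arrays of day 2 (7.72, 7.45 and 7.73).

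OE+KD lay between OE and SCR for 20 of the 28 members, above SCR for 3 and below OE for 5. The median difference from SCR with RA was -0.24 in KD and -0.60 in OE cells, the latter fixed by the choice of members. Against OE, OE+KD had a median of 0.29 log2 (range -0.60 to 1.12), and against SCR of -0.40 (range -0.99 to 0.11). The arrays did not overlap, with OE+KD above OE, for 14 members, against 12.9% of all tested probes, and with OE+KD below OE for 2, against 13.4%. Against SCR they did not overlap, with OE+KD lower, for 22 members, against 23.0%, and higher for 1, against 22.5%. These groups share the arrays that chose the members as low in OE and high in SCR, which favours values between the groups.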

How the data were processed

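The authors deposited a scanner table with 1 linear intensity per probe and array, in which 14.3% to 17.6% of the values of an array are negative, a table of normalized intensities whose lowest value is 20 (method not stated), and log2 fold changes, log2 per the file headers. Per the labels' protocols, the RNA carried a biotin label. The sources used here do not give the array version or scanner software. Background correction of the scanner intensities by normexp (offset 50), quantile normalization and log2 transformation used limma 3.58.1 in R 4.3.3. A probe was tested when above its array's median on all 3 arrays of at least 1 group (10691 probes). One model with 8 group means was fitted to all 24 arrays, with Benjamini-Hochberg adjustment over all probes tested. The fit for OE+KD minus KD was tried on simulated data. These held changes in the OE+KD group only, with independent normal noise of equal spread across arrays. No replicate-number pattern and no outlying array was simulated, nor were the other comparisons.

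The members, comparisons and lists were chosen with earlier results of these data known. For each comparison at most 2 probes with the largest rise and 2 with the largest fall are named, with the additions that follow. ILMN_29202 is also given for OE+KD against KD because it was called there. ILMN_28662 and ILMN_27300 were followed throughout. ILMN_23980 and ILMN_12432, the other members with an RA rise over 5 log2, are also given for OE+KD against KD and for OE without RA on day 4. The 9 gene and marker lists were not run, since no table names the probes. Replicate numbers come from the titles. Deviations of same-numbered arrays correlated at 0.13 to 0.26 in the 3 pairs of OE and SCR without RA on day 4, each over 0.1, so that comparison counts as paired by number, which is a pattern in the values and no label.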

Additional observations from a re-analysis of the deposited data

Results flagged for a closer look

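The OE effect differed between the setting with KD and RA on day 2 and the setting without RA on day 4 at 14 of the 28 members by the test of the difference itself (limma, adjusted p under 0.05), against 26.6% of all tested probes. With a stricter filter on dim probes it was 9 of the 19 members tested, against 29.7%. The members named for it were ILMN_3001 (-1.53 log2), ILMN_29202 (-0.75), ILMN_23718 (0.81) and ILMN_8584 (0.78). RA, day and KD cannot be told apart in this difference. No test for a single outlying value was run on the levels of single probes, since each group holds 3 arrays.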

How the results depend on the processing

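The number of arrays limits the precision, and dim probes have compressed differences. The rule gave 28 probes with the floor at 20 (27 of them shared) and 28 on the scanner scale (16 shared). Leaving out 1 array of its 4 groups gave 22 to 38. Members called lower in OE+KD against KD numbered 3 to 6 over the 9 other settings and 3 to 5 with 1 array left out. For OE against SCR on day 4 they numbered 7 to 14 over the 9 other settings and 10 to 12 with 1 array left out. The 7 were among the 19 members tested with the stricter filter on dim probes. The 14 came with array weights, against 27.5% of all tested probes. The difference of the OE effects was called at 9 to 15 members over the 9 other settings and at 10 to 14 with 1 array left out. With the stricter filter it was called at 9 of 19, and its median over the members left turned from 0.08 to -0.017 log2. With median scaling it was called at 10, against 29.3% of all tested probes. Over all probes, OE+KD against KD gave 944 calls, 537 with median scaling, 1339 with array weights, 1397 with the replicate block, and 578 (without replicate 3 of KD) to 822 with 1 array left out. Over all probes OE against SCR on day 4 gave 4828 to 5223 calls, and the difference 2373 to 2930, with 1 array left out. The members' median of KD minus SCR with RA ran from -0.28 to -0.22 and that of OE+KD minus OE from 0.21 to 0.32 with 1 array left out. Median scaling moved the median difference of the OE effects over all probes to -0.17 log2. The cause was not tested. With the replicate number as a block the members called lower were 4 for OE+KD against KD, against 7.43% of all probes in place of 5.24%, and 13 for OE against SCR on day 4, where calls over all probes rose from 5507 to 6036. For the difference 15 members were called, and 3580 of all probes in place of 2843. ILMN_19498 then passed for OE+KD against KD (limma adjusted p = 0.0340). Same-numbered arrays of OE+KD and KD correlated at 0.08 to 0.22. Replicate number also went with the share of negative scanner values. In every group replicate 3 had the highest share and replicate 2 the lowest. In OE+KD the share was 14.91% in replicate 2 and 17.50% in replicate 3, and in KD 15.05% and 16.98%. The main fit has no term for replicate number, and the reason for this pattern was not tested.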

Other observations

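The authors' deposited table of log2 fold changes heads its KD and OE+KD columns as comparisons with untreated SCR cells on day 2. For ILMN_28662 the authors' deposited table gives -0.29 and -0.80 in these columns, and for ILMN_27300 -0.71 and -0.72, although both probes lie over 5 log2 above untreated SCR cells in every RA group. Over the 28 members the median of the KD column in the authors' deposited table is -0.33. The authors' normalized intensities give 1.0 for KD with RA minus SCR without RA, and -0.28 for KD minus SCR with RA. Across all 20589 probes, which are not independent replicates, the KD column of the authors' deposited table correlates at 0.524 with the difference its heading names and at 0.958 with the difference from SCR with RA. For OE+KD these values are 0.561 and 0.967. Read by its heading, the column would show RA-raised probes as lowered.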
